A study of Mus musculus with 36 samples.

Results

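The search for liver genes whose expression followed blood glucose covered all 36 mice of the series, since each of the 36 had a labelled glucose value. Mice were chosen by no measured outcome. For every probe, log2 intensity was set against glucose among mice that shared the diet of the dam and the diet after weaning, first alone and then with the second recorded body weight held fixed. No gene passed this test, so the genes below are described by the size and error of their slopes and are not said to follow glucose. A slope is the difference in log2 intensity per 50 mg/dl of glucose, with glucose in the direction low to high.

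All mice were male C57BL/6J, and liver RNA was hybridized to 1 Illumina MouseRef-8 v2.0 beadchip array per mouse. Dams ate a high-fat, low-carbohydrate diet (HF) or a low-fat, high-carbohydrate diet (LF) until their pups were weaned, and pups then received HF or LF until the liver was taken at 9 weeks of age. Groups carry the dam's diet first and the pup's diet second. LF_LF held 9 mice, LF_HF 8, HF_LF 9 and HF_HF 10, so 17 mice had LF dams and 19 had HF dams. Fat and carbohydrate differed together and cannot be told apart. The mice came from 12 birth cages. In the study's breeding scheme 1 male was caged with a pair of females, so mice of 1 cage may have different dams. A cage may thus hold more than 1 litter. The study describes the glucose as fasting, and each mouse has 1 reading.

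The liver holds blood glucose up during a fast, first by breaking down its glycogen and then by making new glucose from lactate, glycerol and amino acids, with the last step of both routes run by glucose-6-phosphatase. After a meal it takes glucose up, stores it as glycogen and turns part of it into fat. Insulin, glucagon, glucocorticoids and glucose itself regulate the genes for these steps, and inflammation alters both liver gene expression and circulating glucose.

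The arrays resembled each other closely: for each array the median of its correlations to the other arrays lay between 0.979 and 0.991. The test covered 12289 of 25697 probes, those above a limit on dim values, and 11570 of these carried a gene symbol. Of the 8 hepatocyte markers tested, 6 had a mean log2 intensity above 11, against 6.16 for the filter on dim probes. The first 2 principal components, with 20.8% and 10.2% of the variance, had correlations of -0.00667 and -0.0992 with glucose within groups (36 arrays, as a description). One mouse was at the edge in both glucose and array correlation, though not far from the next mice in correlation. HF_HF replicate 1 had the lowest glucose of all mice, 129 mg/dl, and its array had the lowest median correlation, 0.979. The arrays of HF_LF replicate 4 and LF_HF replicate 2 followed at 0.980 and 0.982. No glucose value was among those flagged below as far from the rest of their group. HF_HF replicate 1 was also the only HF_HF mouse of its birth cage, so it enters slopes between cages but not those within cages. For many slopes and medians below that leaving it out moved, the value without it is given. Not every such value is given, so a slope or median stated once need not be stable to that mouse.

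Glucose overlapped widely between the 4 groups, and most of its spread lay among mice of the same diets. LF_LF mice ranged from 167 to 261 mg/dl with a median of 195, and LF_HF mice from 187 to 277 with a median of 223. HF_LF mice ranged from 148 to 241 mg/dl with a median of 190, and HF_HF mice from 129 to 271 with a median of 178. The HF_HF group thus held both the lowest reading and the second highest. Means were 203 mg/dl ± 35.7 (SD, n = 9), 223.5 ± 32.8 (SD, n = 8), 193 ± 25.3 (SD, n = 9) and 188.5 ± 42.9 (SD, n = 10) in the same order. Diet group accounted for 13.7% of the sum of squares of glucose, cages within a group for 34.9%, and mice within a cage for 51.5%. The pooled SD within groups was 35.1 mg/dl, so the step of 50 mg/dl behind each slope is wider than 1 SD.

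**Figure D1:**
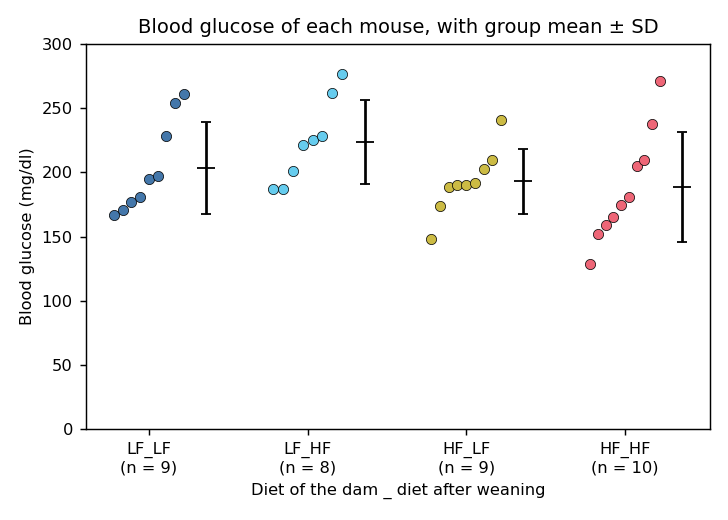
Blood glucose in mg/dl (vertical axis, from 0) of each of the 36 mice by diet group, with 1 point per mouse and the group mean ± SD to its right. The 4 groups overlap, and HF_HF spans 129 to 271 mg/dl, the widest range of the 4.

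Body size was examined because a relation with glucose would bear on every slope. The second body weight had a correlation of r = 0.280 with glucose within groups (two-sided permutation p = 0.106, adjusted p = 0.212 over 4 body measures; rho = 0.249, permutation p = 0.155, adjusted p = 0.310; n = 36), and r = 0.170 without the 2 mice of the most extreme weight. Within groups of the same cage and diet the correlation was 0.492 (permutation p = 0.0631, n = 32). Body mass index was the measure closest to glucose, with r = 0.442 (permutation p = 0.0121, adjusted p = 0.0485; rho = 0.413, permutation p = 0.0213, adjusted p = 0.0852; n = 34). Without the 2 mice of the most extreme index r was 0.209 (permutation p = 0.247). Within groups of the same cage and diet the correlation of glucose with body mass index was 0.66 (permutation p = 0.0305, n = 29). By diet group it was 0.73 in LF_LF, 0.64 in LF_HF, -0.31 in HF_LF and 0.62 in HF_HF. Body length (r = 0.00946, permutation p = 0.955; rho = 0.120, permutation p = 0.489) and weight at 3 weeks (r = 0.0665, permutation p = 0.727; rho = 0.0901, permutation p = 0.620) did not pass. By diet group, the correlation of glucose with second weight was 0.442 in LF_LF, 0.640 in LF_HF, -0.347 in HF_LF and 0.347 in HF_HF. Glucose did not differ between birth cages beyond the spread within them (F = 0.990 for 13 and 19 degrees of freedom, permutation p = 0.418).

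Across the genome, no probe passed a false discovery rate of 5%. With diet group as a factor, limma called 0 of 12289 probes (0%) and the adjusted p reached 0.373 at its lowest. An unadjusted p under 0.05 was found for 737 probes (6.00%), where 614 would be expected without any relation, and for 545 without HF_HF replicate 1. Of these, 365 (2.97% of all tested) had a positive slope and 372 (3.03%) a negative slope. With the second weight held fixed, limma again called 0 probes (0%), with adjusted p values of 0.397 and above. There, 809 probes passed an unadjusted p of 0.05, 381 with positive slopes (3.1%) and 428 with negative ones (3.48%). Slopes were small throughout. The median size of a slope was 0.0255, 5% of the probes had a slope larger than 0.0883 in size, and 49.1% of slopes lay above 0.

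**Figure D2:**
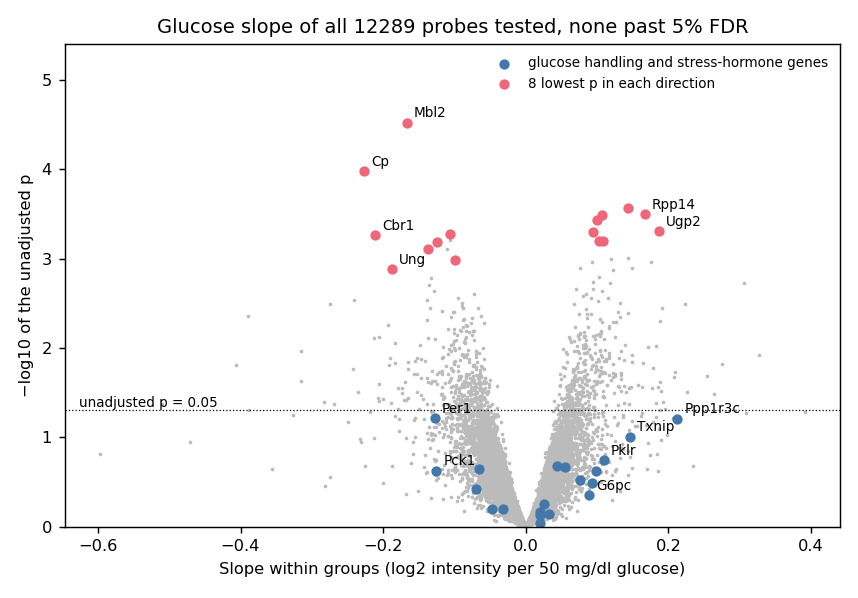
Slope of each of the 12289 probes in log2 intensity per 50 mg/dl of glucose (horizontal axis) against -log10 of its unadjusted p (vertical axis). Red points are the 8 genes with a symbol and the lowest p in each direction, led by Mbl2 and Cp on the negative side; blue points are the genes of glucose handling and stress-hormone response, and all of these lie below the dotted line at an unadjusted p of 0.05.

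The lowest p of all belonged to Mbl2, a mannose-binding lectin that the liver secretes to tag microbes for complement. Its log2 intensity ranged from 11.30 to 11.67 in LF_LF (median 11.41), from 10.91 to 11.25 in LF_HF (median 11.10), from 11.20 to 11.99 in HF_LF (median 11.65) and from 10.81 to 11.53 in HF_HF (median 11.22). In both HF_LF and HF_HF, the mouse with the lowest glucose had the highest Mbl2 of its group and the mouse with the highest glucose had the lowest. The slope was -0.17 ± 0.04 (SE), 0.891-fold per 50 mg/dl with a 95% interval of 0.848 to 0.936 (p = 3.04e-05, adjusted p = 0.373). It lay between -0.19 and -0.15 with any 1 mouse left out, and was -0.14 ± 0.05 within birth cages and -0.22 ± 0.05 between them. By diet group, the slopes were -0.08 in LF_LF, -0.05 in LF_HF, -0.33 in HF_LF and -0.22 in HF_HF, and the difference between dam diets had an unadjusted p of 0.00987 and an adjusted p of 0.999.

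Ceruloplasmin (Cp), the copper-carrying ferroxidase of plasma, came second. Its log2 intensity ranged from 11.91 to 12.70 in LF_LF (median 12.21), from 12.06 to 12.91 in LF_HF (median 12.44), from 11.85 to 12.74 in HF_LF (median 12.33) and from 12.21 to 13.21 in HF_HF (median 12.49). The mouse with the highest glucose had the lowest Cp of its group in LF_HF, HF_LF and HF_HF, and the value of 13.21 belonged to HF_HF replicate 1. The slope was -0.23 ± 0.05 (p = 1.06e-04, adjusted p = 0.569), and -0.19 ± 0.05 without that mouse (p = 8.53e-04). It was negative in each diet group, from -0.29 in HF_LF to -0.13 in LF_HF.

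The other genes of lowest p with negative slopes were Cbr1, a carbonyl reductase, at -0.21 ± 0.06, Ung, which removes uracil from DNA, at -0.19 ± 0.05, and Pcbp2, an RNA-binding protein, at -0.14 ± 0.04. Rpl36a, a ribosomal protein, had -0.12 ± 0.03, Nab1, a repressor of early growth response factors, -0.11 ± 0.03, and Aldh3b1, an aldehyde dehydrogenase, -0.10 ± 0.03. None passed, with adjusted p between 0.569 and 0.664. For Aldh3b1 the probes did not share a sign, since another of its 3 probes had a slope of 0.02 ± 0.03. All 4 probes of Nab1 and all 3 of Ung lay below 0, although by as little as -0.01 and -0.02.

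Among the 8 positive slopes of lowest p was Ugp2, the enzyme that makes UDP-glucose, the direct building block of glycogen. Its log2 intensity ranged from 9.52 to 10.25 in LF_LF (median 9.86), from 9.68 to 10.13 in LF_HF (median 9.98), from 9.41 to 10.10 in HF_LF (median 9.81) and from 9.00 to 9.93 in HF_HF (median 9.66). HF_HF replicate 1, the mouse of lowest glucose, held the lowest value of all mice. The slope was 0.19 ± 0.05, 1.14-fold per 50 mg/dl with a 95% interval of 1.06 to 1.22 (p = 4.91e-04, adjusted p = 0.569), and 0.15 ± 0.05 without that mouse. It was positive in each diet group, from 0.12 in LF_LF to 0.26 in HF_LF.

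Serpinf1, a secreted member of the serpin family also called pigment epithelium-derived factor, had a slope of 0.11 ± 0.03 at a mean log2 intensity of 13.64. Its values were close together, from 13.54 to 13.76 in LF_LF, 13.43 to 13.89 in LF_HF, 13.56 to 13.85 in HF_LF and 13.34 to 13.78 in HF_HF. Hibadh, an enzyme of valine breakdown, had a slope of 0.10 ± 0.03, Mterf1a, of mitochondrial transcription, 0.10 ± 0.03, Mrpl35, of the mitochondrial ribosome, 0.11 ± 0.03, and Tmem70, an assembly factor of ATP synthase, 0.10 ± 0.02. Rpp14, a subunit of ribonuclease P, had 0.17 ± 0.04 and 1700037H04Rik had 0.14 ± 0.04. The adjusted p of all 8 positive genes was 0.569. These 16 genes were picked for their p, so the direction and size of their slopes are descriptions. Their slopes kept their sign in every alternative setting tried. Since the settings share most of the data used for picking, the kept signs say little about how firm the slopes are.

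**Figure D3:**
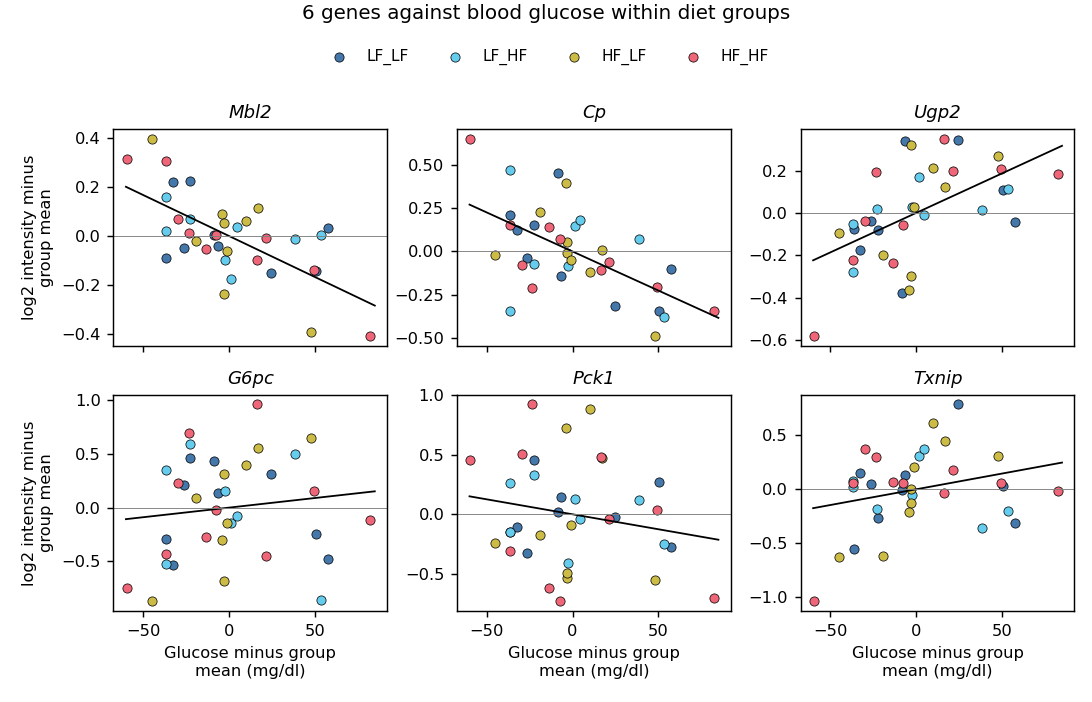
Log2 intensity of 6 genes (vertical axes) against blood glucose in mg/dl (horizontal axes), both as the difference from the mean of the mouse's diet group, with 1 point per mouse and the fitted slope as a line. Mbl2 and Cp tilt downward and Ugp2 upward, while G6pc and Pck1 scatter widely around lines of 0.09 and -0.13 per 50 mg/dl; the lowest point of Txnip at the left is HF_HF replicate 1.

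The genes of glucose release had slopes whose intervals spanned 0. G6pc, the catalytic subunit of glucose-6-phosphatase, ranged from 12.00 to 12.99 in LF_LF (median 12.67), from 10.61 to 12.07 in LF_HF (median 11.51), from 11.58 to 13.10 in HF_LF (median 12.54) and from 11.02 to 12.73 in HF_HF (median 11.70). The mouse with the highest glucose had the lowest G6pc in LF_HF and the highest in HF_LF. The slope was 0.09 ± 0.12 with a 95% interval of -0.15 to 0.32 (p = 0.445, adjusted p = 0.950), which on the fold scale is 0.904 to 1.25 per 50 mg/dl. It was 0.03 ± 0.12 without HF_HF replicate 1 and 0.17 without LF_HF replicate 3. At a fixed second weight it was 0.18 ± 0.11 (p = 0.120). By group, the slope was -0.12 ± 0.21 in LF_LF, -0.23 ± 0.25 in LF_HF, 0.83 ± 0.30 in HF_LF and 0.14 ± 0.17 in HF_HF (p = 0.0460 and adjusted p = 1.00 for a difference among the 4).

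Pck1, which converts oxaloacetate to phosphoenolpyruvate at the start of gluconeogenesis, ranged from 7.57 to 8.36 in LF_LF (median 7.88), from 7.13 to 7.87 in LF_HF (median 7.58), from 7.61 to 9.05 in HF_LF (median 7.99) and from 7.22 to 8.88 in HF_HF (median 7.95). Its values at the highest glucose were low for their group in all 4 groups, ranking eighth of 9, seventh of 8, ninth of 9 and ninth of 10. The slope was -0.13 ± 0.10 with a 95% interval of -0.34 to 0.09 (p = 0.236, adjusted p = 0.895), and -0.05 without HF_HF replicate 7. Ppargc1a, a coactivator of gluconeogenic genes, had a slope of -0.07 ± 0.05, and Foxo1, the forkhead factor that insulin holds out of the nucleus, 0.05 ± 0.04, or 0.03 without HF_HF replicate 1. Over the 17 tested genes of gluconeogenesis and glucose release, 6 slopes lay above 0 and 11 below, with a median of -0.03, beside a median of -0.00 and 49.1% above 0 for all probes, and the median was 0.00 without HF_HF replicate 7. None of the 17 had an unadjusted p under 0.05, and the slope closest to it was that of Creb1, a cAMP-responsive factor, at -0.05 ± 0.03.

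Glycogen genes held Ugp2 as their only member of 13 with an unadjusted p under 0.05. Ppp1r3c, a subunit that brings protein phosphatase 1 to glycogen and so favours synthesis, ranged from 8.99 to 10.78 in LF_LF (median 9.72), from 9.41 to 10.49 in LF_HF (median 9.73), from 9.09 to 10.83 in HF_LF (median 9.58) and from 9.01 to 10.24 in HF_HF (median 9.79). Its slope was 0.21 ± 0.11 (p = 0.0617, adjusted p = 0.824) and 0.29 ± 0.11 at a fixed second weight (p = 0.00968, adjusted p = 0.672). By group the slope ran from -0.06 in LF_HF to 0.88 in HF_LF, with p = 0.101 for a difference among the 4. Ppp1r3b, the related liver subunit, had 0.09 ± 0.09, Gys2, liver glycogen synthase, 0.08 ± 0.07, and Pygl, liver glycogen phosphorylase, 0.04 ± 0.03. Without HF_HF replicate 1 the slopes of Ppp1r3b and Gys2 were 0.05 and 0.03. Of the 13, 8 lay above 0 and 5 below, with a median of 0.02, or 0.01 without HF_LF replicate 9.

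Genes that glucose is known to induce gave mixed values. Txnip, an arrestin-family protein that limits glucose uptake, ranged from 9.05 to 10.39 in LF_LF (median 9.63), from 8.90 to 9.63 in LF_HF (median 9.24), from 9.15 to 10.40 in HF_LF (median 9.78) and from 8.27 to 9.68 in HF_HF (median 9.37). The mouse with the lowest glucose had the lowest Txnip in LF_LF, HF_LF and HF_HF, but the mouse with the highest glucose was never the highest in Txnip. The slope was 0.15 ± 0.09 (p = 0.0979, adjusted p = 0.847) and 0.07 ± 0.08 without HF_HF replicate 1. Within birth cages it was -0.09 ± 0.09 and between cages 0.52 ± 0.11, or 0.32 ± 0.12 between cages without that mouse; the difference of these slopes was not tested. Pklr, liver pyruvate kinase, had a slope of 0.11 ± 0.08, or 0.16 ± 0.07 by its other probe, and 0.06 ± 0.08 without HF_HF replicate 1. Mlxipl, the carbohydrate response factor ChREBP, had -0.07 ± 0.08, which was 0.02 without LF_LF replicate 8 and -0.12 without HF_HF replicate 1. Gapdh, the glycolytic dehydrogenase often used as a reference gene, had 0.12 ± 0.04 (p = 0.00571, adjusted p = 0.768), and 0.07 ± 0.04 without HF_HF replicate 1, which had the lowest Gapdh of all mice at 12.61. Of the 16 tested genes of glycolysis and glucose induction, 11 lay above 0 and 5 below, with a median of 0.01.

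Insulin signalling genes had slopes close to 0. Over 16 tested members the slopes ran from -0.04 to 0.05 with a median of 0.00, 9 above 0 and 7 below, and none had an unadjusted p under 0.05. Without HF_HF replicate 1 the median was -0.00748, with 6 above 0 and 10 below. Irs1 and Irs2, the docking proteins of the insulin receptor, had slopes of 0.03 ± 0.09 and 0.02 ± 0.06, and the glucose transporter Slc2a2 (GLUT2) had 0.02 ± 0.05. Without HF_HF replicate 1 the slopes of Irs1, Irs2 and Slc2a2 were -0.008, 0.005 and -0.002. Genes that insulin represses or fasting raises gave 9 positive and 6 negative slopes of 15, with a median of 0.02, or 0.00698 without HF_HF replicate 1. In that list Pdk4, which shuts off pyruvate dehydrogenase, had 0.03 ± 0.04. Igfbp1, a carrier of insulin-like growth factors, had -0.03 ± 0.07, or -0.019 without HF_HF replicate 1. Fgf21, a fasting hormone of the liver, had 0.02 ± 0.16, the least precise slope of the 20 genes named for glucose handling and stress hormones and tested. Its slope was -0.009 without HF_HF replicate 1. Insr and Tat were too dim to be tested, and Sds was not analysed here.

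Stress-hormone targets did not share a direction. Per1, a clock gene that glucocorticoids also raise, had a slope of -0.13 ± 0.07 (p = 0.0615), Fkbp5, a chaperone of the glucocorticoid receptor, -0.05 ± 0.10, and Tsc22d3, the glucocorticoid-induced leucine zipper, 0.10 ± 0.08. Of 17 tested glucocorticoid-induced genes, 5 lay above 0 and 12 below, with a median of -0.04, but at a fixed second weight 8 lay above and 9 below, with a median of -0.00833. The 1 member with an unadjusted p under 0.05 was Mt2, a metal-binding metallothionein, at -0.32 ± 0.12. It was -0.19 without HF_HF replicate 1, whose log2 intensity of 9.01 was the highest of all mice, against group medians between 6.22 and 7.14. Immediate early genes, which respond within minutes to stress and handling, gave 3 positive and 7 negative slopes of 10 tested, and clock genes 5 and 8 of 13. Of the immediate early genes, 8 of 10 lay above 0 in mice fed LF after weaning (median 0.105). In those fed HF 3 of 10 did (median -0.0981), and between cages without HF_HF replicate 1, 7 of 10 (median 0.142). These differences were not tested.

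Acute phase genes, which the liver makes in bulk during inflammation, had mostly negative slopes. Of 27 tested, 25 lay below 0 and 2 above, with a median of -0.105, beside -0.000786 for all probes. The members were measured in the same mice and can rise together, so they are not separate observations. Lists were chosen with earlier results of these data known. None passed at 5%, and 6 (Cp, Lbp, Itih3, Fgb, Saa3 and Cd14) had negative slopes with an unadjusted p under 0.05, where 3.03% of all probes did. Saa3, a serum amyloid, had -0.51 ± 0.24, Itih3, a heavy chain of a hyaluronan-binding protease inhibitor, -0.21 ± 0.09, Fgb, a fibrinogen chain, -0.12 ± 0.05, and Cd14, a lipopolysaccharide receptor, -0.14 ± 0.07. The steepest slope of the list was that of Lcn2, a siderophore-binding protein, at -0.60 ± 0.41, with p = 0.154. The 2 members above 0 were Il6ra, the interleukin-6 receptor, at 0.07 ± 0.07, and Hamp2, related to the iron hormone hepcidin, at 0.04 ± 0.15.

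Lbp, which hands lipopolysaccharide to Cd14, ranged from 8.60 to 9.90 in LF_LF (median 8.74), from 8.74 to 10.93 in LF_HF (median 8.96), from 8.68 to 9.58 in HF_LF (median 9.15) and from 8.97 to 11.26 in HF_HF (median 9.58). The highest Lbp lay far above the group median in LF_LF, LF_HF and HF_HF, but not in HF_LF. LF_LF replicate 6 (195 mg/dl), LF_HF replicate 7 (187 mg/dl), HF_LF replicate 1 (174 mg/dl) and HF_HF replicate 1 (129 mg/dl) held both the highest Lbp and the highest mean over the acute phase list in their groups. All 4 had a glucose below the mean of their group, though LF_LF replicate 6 was at its group median. These mice were picked for their expression. Among other mice, list means lay above the group mean by 0.539 in HF_HF replicate 10 (175 mg/dl) and 0.431 in HF_HF replicate 6 (152 mg/dl). They did so by 0.422 in LF_HF replicate 5 (221 mg/dl) and 0.218 in LF_HF replicate 6 (262 mg/dl). The glucose of LF_HF replicate 6 was above its group mean. The slope of Lbp was -0.39 ± 0.13 (p = 0.00440, adjusted p = 0.768) and -0.30 ± 0.13 without HF_HF replicate 1. Averaged over the 27 genes, the log2 level ranged from 10.20 to 11.30 in LF_LF, from 10.27 to 11.51 in LF_HF, from 10.22 to 10.85 in HF_LF and from 10.33 to 11.91 in HF_HF.

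Without HF_HF replicate 1 the median of the acute phase list was -0.0845, with 24 of 27 slopes below 0, but the members with an unadjusted p under 0.05 dropped from 6 to 2, Cp and Lbp. Itih3, Fgb, Cd14 and Lcn2 then had slopes of -0.13, -0.08, -0.05 and -0.29. Leaving out any other mouse gave medians down to -0.140. Within birth cages 23 of 27 lay below 0 with a median of -0.0638, and between cages 24 of 27 with a median of -0.171. Between cages without that mouse, 14 lay below 0 and 13 above, with a median of -0.0225. At a fixed second weight the median was -0.122. In a fit to the 18 mice fed HF after weaning the median was -0.158, with 25 of 27 below 0, and in the 18 fed LF it was -0.0303, with 18 of 27 below 0. The difference between these medians was not tested.

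Neutrophil markers were highest in the same mouse as the acute phase list in LF_LF, LF_HF and HF_HF, and in HF_LF in replicate 6 in place of replicate 1. The neutrophil proteins S100a8 and S100a9 had slopes of -0.41 ± 0.16 and -0.27 ± 0.09 (p = 0.0154 and 0.00325, adjusted p = 0.768 for both), and -0.25 and -0.20 without HF_HF replicate 1. S100a8 reached 9.82 in that mouse, against group medians between 6.79 and 7.52. Of the other 2 neutrophil markers tested, of 10 on the array, the protease Mmp9 had 0.04 ± 0.03 and neutrophil elastase, Elane, -0.01 ± 0.02. Averaged over the 4, the log2 level ran from 6.22 to 6.87 in LF_LF, 6.20 to 7.06 in LF_HF, 6.21 to 6.80 in HF_LF and 6.39 to 7.53 in HF_HF. How far these cells took part in the acute phase slopes was not tested.

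Kupffer cell and macrophage markers lay below 0 for 11 of 12 tested, with a median slope of -0.0804, and sinusoidal endothelial markers for 12 of 13, with a median of -0.0510. Without HF_HF replicate 1 the medians were -0.0481, with 10 of 12 below 0, and -0.0419, with 11 of 13 below 0. No member of either list had an unadjusted p under 0.05. The slopes closest to it were those of Folr2, a folate receptor of macrophages, at -0.13 ± 0.07 (p = 0.0524), and Stab2, a scavenger receptor of sinusoids, at -0.09 ± 0.05 (p = 0.0735), or -0.05 without LF_LF replicate 8. In bulk liver, fewer cells of a type and less RNA per cell cannot be told apart. Averaged over the list, Kupffer markers ranged from 8.10 to 8.54 in LF_LF, 7.29 to 8.86 in LF_HF, 8.05 to 8.49 in HF_LF and 7.95 to 8.77 in HF_HF. Endothelial markers ranged from 8.37 to 8.63, 7.73 to 8.58, 8.44 to 8.74 and 8.07 to 8.61 in the same order. LF_HF replicate 2, with 225 mg/dl, was the lowest mouse in both lists.

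These 2 marker lists gave other values within birth cages than between them. Within birth cages Kupffer markers split 6 and 6 with a median of -0.00414, and endothelial markers lay above 0 for 10 of 13 with a median of 0.0166. Between cages all 12 and all 13 lay below 0, with medians of -0.187 and -0.155, and these were -0.112 and -0.168 without HF_HF replicate 1. The 17 combinations of cage and group behind the slopes between cages include 4 with a single mouse. Medians over all probes were -0.000213 within and -0.00114 between cages. The difference of the slopes within and between cages was not tested.

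**Figure D4:**
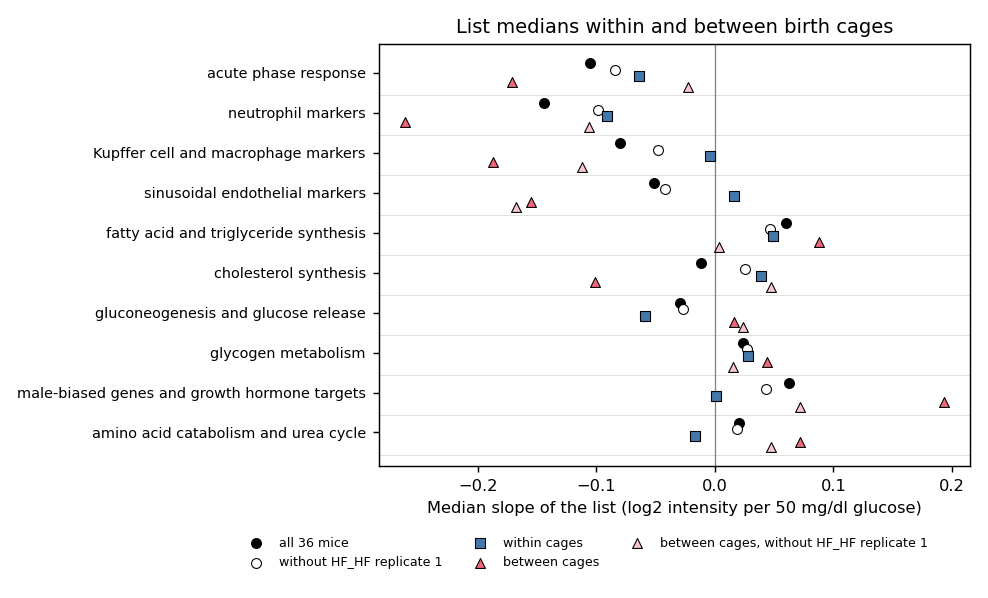
Median slope of 10 gene lists in log2 intensity per 50 mg/dl of glucose (horizontal axis), over all 36 mice (black circles), without HF_HF replicate 1 (open circles), within birth cages (squares), between birth cages (red triangles) and between cages without that mouse (pale triangles). Acute phase genes lie below 0 in all 5, at -0.105 over all mice and -0.0225 between cages without HF_HF replicate 1, while endothelial markers lie at 0.0166 within cages and -0.155 between them.

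Genes of fatty acid and triglyceride synthesis had mostly positive slopes. Of 20 tested, 18 lay above 0 and 2 below, with a median of 0.0600. As in the acute phase list, the members are not separate observations. None passed at 5%, and 4 had positive slopes with an unadjusted p under 0.05, where 2.97% of all probes did. These were Thrsp, a lipogenic nuclear protein, at 0.27 ± 0.11, Acly, which makes cytosolic acetyl-CoA from citrate, at 0.16 ± 0.07, Acss2, which makes it from acetate, at 0.19 ± 0.09, and Gpam, the first enzyme of glycerolipid assembly, at 0.09 ± 0.04. At a fixed second weight 15 lay above 0 and 5 below, with a median of 0.0593, and 2 had an unadjusted p under 0.05. In the fit to mice fed HF after weaning the median was 0.0936 and in mice fed LF 0.0154, a difference that was not tested. Fasn and Scd1, which build and desaturate palmitate, had slopes of 0.02 each (p = 0.592 and 0.716).

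Thrsp ranged from 11.28 to 12.36 in LF_LF (median 12.01), from 11.34 to 12.17 in LF_HF (median 11.81), from 10.76 to 12.76 in HF_LF (median 11.70) and from 10.95 to 12.48 in HF_HF (median 11.63). In HF_HF the lowest value belonged to the mouse of lowest glucose and the highest to the mouse of highest glucose. Acly was highest in the mouse of highest glucose in both LF_LF (12.88) and HF_HF (12.35). Its slope was 0.08 without HF_HF replicate 7, the mouse with 271 mg/dl, and that of Acss2 was 0.12. The list median lay between 0.0385 and 0.0831 with any 1 mouse left out. Within birth cages 18 of 20 lay above 0 with a median of 0.0488, and between cages 16 of 20 with a median of 0.0875, which became 10 of 20 and 0.00317 without HF_HF replicate 1. Cholesterol synthesis genes had 6 positive and 11 negative slopes of 17 and a median of -0.0114, which was 0.0251 without HF_HF replicate 1. Within birth cages 15 of 17 lay above 0 (median 0.0392). Between cages 3 of 17 did (median -0.101), or 11 of 17 without HF_HF replicate 1 (median 0.047). In pups of LF dams 16 of 17 lay above 0 (median 0.0514), and in pups of HF dams 2 of 17 (median -0.0594). In mice fed LF after weaning 13 of 17 lay above 0 (median 0.0933), and in those fed HF 2 of 17 (median -0.0319). These differences were not tested.

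**Figure D5:**
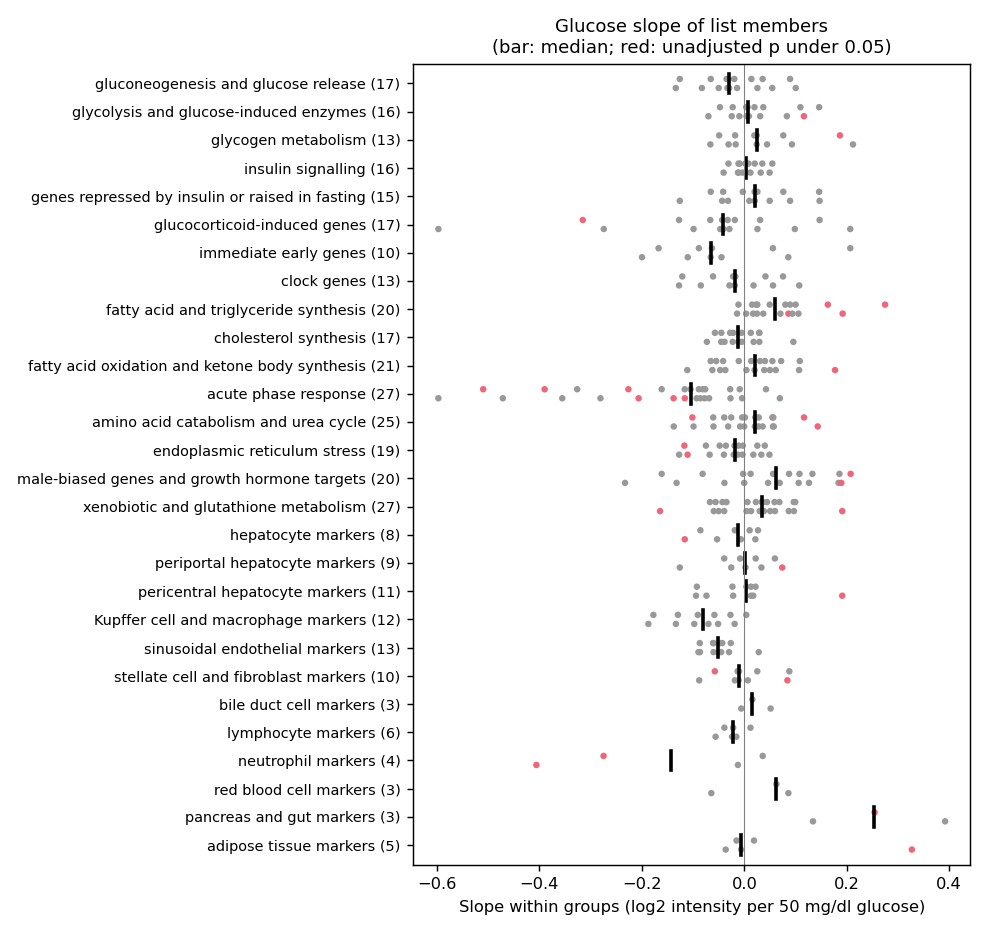
Slope of each tested member of 28 gene lists in log2 intensity per 50 mg/dl of glucose (horizontal axis), with 1 point per gene, the number tested in brackets and the list median as a bar. Red points have an unadjusted p under 0.05; acute phase genes hold 6 of 27, all negative, and fatty acid and triglyceride synthesis genes 4 of 20, all positive.

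Single genes of other hepatic functions had slopes of the same size. Cyp1a2, a pericentral cytochrome of drug and caffeine metabolism, ranged from 11.00 to 11.89 in LF_LF (median 11.30), from 11.83 to 12.60 in LF_HF (median 11.96), from 10.85 to 11.84 in HF_LF (median 11.22) and from 11.24 to 12.16 in HF_HF (median 12.02). It was lowest in HF_HF replicate 1 among HF_HF mice, and highest in the mouse of highest glucose in HF_LF. Its slope was 0.19 ± 0.06 (p = 0.00356) and 0.24 ± 0.06 at a fixed second weight (p = 1.14e-04, adjusted p = 0.397), the third lowest p of that fit. Over the 11 pericentral markers tested, 6 lay above 0 with a median of 0.00407, and 8 with a median of 0.0215 at a fixed second weight. Without HF_HF replicate 1, 5 lay above 0 in the first of these fits, with a median of -0.00127. Among 27 genes of xenobiotic and glutathione metabolism, 19 lay above 0 and 8 below with a median of 0.0338, but 13 above and 14 below with a median of -0.00325 without HF_HF replicate 1. Cyp3a13, a cytochrome, had -0.16 ± 0.07, or -0.10 without that mouse.

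Prodh2, which degrades hydroxyproline, had a slope of 0.14 ± 0.04 (p = 9.98e-04, adjusted p = 0.647). It ranged from 11.08 to 11.49 in LF_LF, 11.34 to 11.73 in LF_HF, 11.03 to 11.68 in HF_LF and 10.97 to 11.75 in HF_HF, with the mouse of highest glucose at the top of HF_LF and HF_HF. The tyrosine enzymes Hpd and Fah had 0.12 ± 0.04 and 0.05 ± 0.03, and glutamate dehydrogenase, Glud1, -0.10 ± 0.05, or -0.06 without HF_HF replicate 1. Over the 25 tested genes of amino acid catabolism and the urea cycle, 14 lay above 0 and 11 below, with a median of 0.02, or -0.00271 without LF_LF replicate 8. In the endoplasmic reticulum stress list 14 of 19 lay below 0, with a median of -0.0191. Atf4, a stress-induced factor, and Calr, a chaperone, had -0.12 ± 0.05 and -0.11 ± 0.05, and Ddit3 had 0.05. Without HF_HF replicate 1 no member had an unadjusted p under 0.05. Without the 2 mice farthest from the median glucose, 10 lay above 0 and 9 below (median 0.0172). In mice fed LF after weaning 13 of 19 lay above 0 (median 0.0122), and in those fed HF 2 of 19 (median -0.0666). This difference was not tested.

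Male-biased genes and growth hormone targets lay above 0 for 13 of 20, with a median of 0.0626. Cyp4a12a and Cyp4a12b, fatty acid hydroxylases of male liver, had 0.19 ± 0.08 and 0.21 ± 0.09, or 0.09 and 0.12 without HF_HF replicate 1, and the list then held no member with an unadjusted p under 0.05. Near-identical genes of this family can share signal. The steepest slope of the list was negative, that of Socs2 at -0.23. At a fixed second weight, 2 members had a positive slope with an unadjusted p under 0.05 and 1 a negative slope. Within cages the list split 10 and 10 with a median of 0.000902, and between cages 16 and 4 with a median of 0.193. Between cages without HF_HF replicate 1 it split 15 and 5 with a median of 0.0715. Genes of fatty acid oxidation and ketone body synthesis lay above 0 for 13 of 21 with a median of 0.02, but for 10 of 21 with a median of -0.00925 without HF_HF replicate 1. Acaa1b, a peroxisomal thiolase, had 0.18 ± 0.08, or 0.07 without that mouse. Car3, a carbonic anhydrase of fat, muscle and liver kept here as an adipose marker, had 0.33 ± 0.12, or 0.16 without that mouse. The other 4 adipose markers tested ran from -0.04 to 0.02.

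Pancreatic enzymes had positive slopes but were high in few mice. Of 11 pancreas and gut markers on the array only 3 were bright enough to be tested, the elastases Cela1 at 0.25 ± 0.11 (p = 0.0207, adjusted p = 0.768) and Cela2a at 0.39 ± 0.20, and the amylase Amy2a5 at 0.13 ± 0.09. Averaged over the 3, the log2 level ran from 7.38 to 7.86 in LF_LF, 7.43 to 9.01 in LF_HF, 7.07 to 7.69 in HF_LF and 7.26 to 10.00 in HF_HF. The highest value, 10.00, was that of HF_HF replicate 2, with 238 mg/dl. Cela2a reached 10.76 in that mouse and 10.23 in LF_HF replicate 6 (262 mg/dl), against group medians between 6.69 and 6.94. Without HF_HF replicate 2 the slope of Cela2a was 0.16 and that of Amy2a5 0.03, and without HF_HF replicate 1 that of Cela1 was 0.17. The other marker lists had medians of -0.0107 for stellate cells and fibroblasts, -0.0228 for lymphocytes, -0.0126 for hepatocytes, 0.00227 for periportal hepatocytes, 0.0158 for bile duct cells and 0.0627 for red blood cells, the last at 0.0310 without HF_HF replicate 1. Without that mouse the medians were -0.00276 for stellate cells and fibroblasts, -0.0198 for hepatocytes, 0.0123 for periportal hepatocytes and 0.0102 for bile duct cells.

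Whether glucose went with different genes under different diets was tested by letting the slope vary. For a difference among the 4 groups limma called 0 probes (0%), with 271 at an unadjusted p under 0.05 and a lowest adjusted p of 1.00. For a difference between mice fed HF and LF after weaning it called 0 (0%), with 531 at an unadjusted p under 0.05 and a lowest adjusted p of 0.996. For a difference between pups of HF and LF dams it called 0 (0%), with 265 and 0.999. These counts lay below the 614 expected without any difference.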

How the data were processed

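Liver RNA of 36 mice was profiled on 1-colour Illumina arrays. The authors deposited quantile-normalized probe intensity on a linear scale (45.7 to 32949.1), and the submitters' processing notes name BeadStudio. No detection calls were used. Since no value lies below 45.7, a background may remain in the intensities, which would understate changes of dim probes. Log2 was taken, and probes with a median over arrays of at least 71.5, which is the median of the whole table, were kept (12289, with 13408 left out). Of 25697 probes, 23978 had 1 symbol and 1719 none.

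limma 3.58.1 (R 4.3.3, statmod 1.5.0) fitted group and glucose, with or without second weight, by lmFit and eBayes with a trend, and Benjamini-Hochberg adjustment over all probes tested. The second weight is labelled as from weaning but averages 23.6 g to 30.5 g per group. Body measures were tested with 100000 permutations within groups (Python 3.11.15). Lists used each gene's brightest probe. Named genes were the 8 of lowest p per direction, preset genes of glucose handling and stress hormones (20 tested) and up to 4 members per list of lowest p. Fasn, Scd1, Lcn2, Saa3, Cd14, Il6ra and Hamp2 were named after their values were seen. Members and lists were chosen with earlier results of these data known. The fits were tested on simulated data. Whether mice of a group are independent beyond their cages is not given in the sources used here.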

Additional observations from a re-analysis of the deposited data

Results flagged for a closer look

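Of 148 sets of values (glucose and 36 genes in 4 groups), 6 held 1 mouse far from the rest of its group, by the gap to the nearest mouse as a share of the group's range. Chance alone would give about 1 in 20, or 7.4. The log2 intensity of Cp was 13.21 in HF_HF replicate 1, against a group median of 12.49. In the same mouse that of Txnip was 8.27, against 9.37. Aldh3b1 was at 5.98 in HF_HF replicate 7, against 6.47. Rpl36a was at 10.83 in HF_LF replicate 9, against 11.2. Fgf21 was at 10.2 in LF_HF replicate 8, against 6.99. Mlxipl was at 9.29 in LF_LF replicate 8, against 10.65, and its slope was 0.02 without that mouse. HF_HF replicates 1 and 7 and HF_LF replicate 9 were at the lowest or highest glucose of their groups.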

How the results depend on the processing

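The count of called probes was 0 under all 70 alternatives of the fit with group and all 62 with second weight, and under 41 for each test of differing slopes. The alternatives covered filter, trend, robust fit, background, centring, array weights, log2 or ranked glucose, cage terms, covariates, 1 diet only, and leaving out each mouse, each cage or the 2 mice farthest from the median glucose. Probes with an unadjusted p under 0.05 numbered 340 to 1360 and 312 to 1425 in the first 2 fits. The lowest adjusted p was 0.0581, with body mass index as covariate, an alternative chosen after seeing the data, as were the fits between cages without HF_HF replicate 1. It was 0.0671 with post-weaning diet alone as a factor, 0.0627 without LF_HF replicate 1, the lowest with 1 mouse or cage left out, and 0.0954 at a fixed second weight without LF_HF replicate 1. The correlation of glucose with second weight ran from 0.134 without HF_HF replicate 7 to 0.369 without HF_LF replicate 9, and only the latter had a permutation p under the threshold (p = 0.0328). It was 0.0422 without the 2 mice of most extreme glucose. The cause was not tested. The F of cage ran from 0.743 to 1.68 (permutation p = 0.129) with 1 cage left out. Signs of gene slopes differed from the first fit in 94 of 4738 gene and setting combinations. No gene was called, so this count covers only genes that did not pass. No paired analysis was possible because replicate numbers were given in accession order and slopes compare mice within groups. The number of arrays and the single glucose reading per mouse limit precision, and the error of a reading is not given in the sources used here.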
